A study of Homo sapiens with 8 samples.

Results

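The 10 genes described here lie next to KDM3B on band 5q31 of chromosome 5: CTNNA1, HSPA9, ETF1, FAM53C, BRD8, FAM13B, CDC23, MATR3, PAIP2 and SIL1. They were chosen by name, with earlier results of these data known, as genes close to KDM3B in a region that is often lost in myeloid disease. Not every gene of the region is among them. All 10 were found among the 37526 gene names listed for all 8 libraries. The question they address is whether RNA fell only at KDM3B when KDM3B was knocked down, or also at the genes around it. The RNA of NB4 cells, a human line of acute promyelocytic leukemia (APL) in which the PML and RARα genes are fused, was sequenced in 4 groups of 2 libraries. All cells had been stably transduced with the lentiviral vector pLVX-shRNA2-puro. The scramble group carried the control vector, which the labels call empty and the methods of the study a scrambled shRNA, and the shKDM3B group carried an shRNA against KDM3B. Which of the study's KDM3B shRNAs was used is not given in the sources used here. The scramble+ATRA and shKDM3B+ATRA groups were the same kinds of cells given all-trans retinoic acid (ATRA), which drives these cells towards granulocytes, at 1 µM for 24 or 48 hours. The labels do not say which time belongs to which library.

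Band 5q31 belongs to the long arm of chromosome 5, which is deleted in a part of myelodysplastic syndromes and acute myeloid leukemias. Several of its genes have been studied as candidates whose loss of 1 copy changes blood formation, among them KDM3B itself, a demethylase of histone H3, and its neighbours CTNNA1 and HSPA9. An shRNA acts on messenger RNA by sequence, so the neighbours of its target show what happened along the chromosome and not whether other RNAs were targeted. The neighbours have varied functions. HSPA9 encodes the HSP70 chaperone of mitochondria and SIL1 the nucleotide exchange factor of the HSP70 chaperone of the endoplasmic reticulum. ETF1 encodes the factor that recognises stop codons, and PAIP2 a repressor of the poly(A)-binding protein. CDC23 is a subunit of the anaphase-promoting complex, BRD8 a subunit of the NuA4/TIP60 histone acetyltransferase, and MATR3 an RNA-binding protein of the nuclear matrix. CTNNA1 encodes α-catenin, which ties cadherins to actin. FAM13B and FAM53C are less well characterised.

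In hg38, with the annotation of GENCODE v44, KDM3B occupies chr5:138352685-138437028 on the plus strand. On its centromeric side follow FAM53C at chr5:138331935-138349729 on the plus strand, CDC23 at chr5:138187650-138213343, BRD8 at chr5:138139770-138178953 and FAM13B at chr5:137937960-138051961, the last 3 on the minus strand. On its telomeric side lie ETF1 at chr5:138506095-138543236 and HSPA9 at chr5:138553756-138575675, both on the minus strand, and then CTNNA1 at chr5:138610967-138935034 on the plus strand. Further out are SIL1 at chr5:138946724-139293557 on the minus strand, MATR3 at chr5:139273752-139331677 and PAIP2 at chr5:139341587-139369720, both on the plus strand. All 10 are protein-coding. Relative to the annotated start of KDM3B, that of FAM53C lies at -20.75 kb and that of PAIP2, the farthest, at 989 kb.

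Annotated starts of SIL1 and MATR3 lie close together on opposite strands. In GENCODE v44 a SIL1 start is annotated at base 139293557 and a MATR3 start at base 139293674, with 116 bases between them. A 300-base RefSeq promoter window of MATR3 in GRCh38.p14 (chr5:139293490-139293789, plus strand), placed by RefSeq's own MATR3 start, spans both. It is shown because SIL1 is the member called with ATRA and MATR3 its neighbour across this stretch. The RefSeq promoter entry of SIL1 itself lies elsewhere, at chr5:139198319-139198618, MATR3 has a further entry, and which starts were used in these cells was not measured. The capitals mark the bases between the starts, of which 69.8% are G or C:
SIL1-MATR3 window: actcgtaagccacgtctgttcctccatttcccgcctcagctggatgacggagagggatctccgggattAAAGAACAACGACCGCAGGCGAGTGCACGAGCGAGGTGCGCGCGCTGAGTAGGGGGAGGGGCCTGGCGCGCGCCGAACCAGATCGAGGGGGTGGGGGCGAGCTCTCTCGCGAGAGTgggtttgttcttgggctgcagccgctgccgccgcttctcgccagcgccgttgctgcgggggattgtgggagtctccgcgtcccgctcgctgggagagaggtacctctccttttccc

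The libraries held 9708739 to 33017787 pairs assigned to genes. The 4 untreated libraries and replicate 1 of scramble+ATRA had 8.49% to 9.62% of their uniquely aligned pairs outside genes, whereas replicate 2 of scramble+ATRA and both shKDM3B+ATRA libraries had 50.02% to 51.4%. The first 5 libraries are called the low side below and the other 3 the high side. All shKDM3B+ATRA libraries were on the high side and all shKDM3B libraries on the low side, so ATRA and this difference cannot be told apart in that comparison. Levels are CPM, the share of a library's counts on an equal scale for all libraries, after TMM scaling over all 8 (normalized CPM). Of 8 markers of the promyelocytic and granulocytic lineage, 5 were above 1 CPM in both libraries of every group, led by MPO, and ELANE, PRTN3 and AZU1 stayed at or below 1.47 CPM. The summed level of the 8 was 4642 to 5781 CPM in scramble, 8724 to 9946 in shKDM3B, 1346 to 1766 in scramble+ATRA and 2867 to 3706 in shKDM3B+ATRA. Most of this sum was MPO, at 4284 and 5343 CPM in scramble and 730 and 616 in scramble+ATRA. CEBPE went the other way, from 51.2 and 74.3 CPM in scramble to 427 and 335 in scramble+ATRA, as did SPI1 and CD33. The T cell markers summed to at most 1.48 CPM, the B cell markers to 3.65 to 24.2 CPM and the epithelial markers to 17.9 to 25.2 CPM. All 3 erythroid markers were at 0 counts in all 8 libraries. In bulk samples fewer cells of a kind and less RNA per cell cannot be told apart.

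The neighbours differed widely in abundance, and their order was read per kilobase of annotated exon in the scramble group. HSPA9 was the most abundant at 96.1 ± 3.8 normalized CPM per kb (SD, n = 2), followed by ETF1 at 71.0 ± 12. PAIP2 at 49.5 ± 7.5 and MATR3 at 45.9 ± 5.3 overlapped each other. KDM3B itself came next at 23.8 ± 0.042. CDC23 was at 20.3 ± 1.1 and FAM53C at 15.6 ± 2.7. FAM13B at 11.3 ± 0.040 and BRD8 at 10.9 ± 1.5 overlapped. CTNNA1 at 8.87 ± 0.031 and SIL1 at 3.37 ± 0.020 were the lowest. HSPA9 and SIL1, which both act in HSP70 chaperone systems, were thus at opposite ends of the order. Every member was well counted, the lowest count of any member in any library being 219 for SIL1.

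KDM3B was reduced in both knockdown groups. In normalized CPM it was 187 and 188 in the scramble libraries and 76.3 and 86.2 in the shKDM3B libraries. With ATRA it was 196 and 121 in scramble+ATRA and 52.5 and 57.4 in shKDM3B+ATRA. The groups did not overlap in either comparison, and the scramble+ATRA libraries differed more from each other than those of any other group. The log2 fold change of shKDM3B against scramble was -1.21 ± 0.15 (SE, edgeR quasi-likelihood test, adjusted p = 0.068), which left 43.3% of the control level. That of shKDM3B+ATRA against scramble+ATRA was -1.53 ± 0.29, with an unadjusted edgeR p of 0.00787 and an adjusted p of 0.502, or 34.6% of the control level. On the high side alone, without replicate 1 of scramble+ATRA, it was -1.13. Without either shKDM3B+ATRA library the unadjusted edgeR p rose to 0.0632 or 0.0534.

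In untreated cells none of the 10 neighbours passed the test when KDM3B was knocked down. Calls followed the thresholds of the study, an unadjusted p under 0.05 together with a change of 1.5-fold or more. By this rule 0 of 10 neighbours and 7.01% of all 13855 genes tested with edgeR were called, and 0 of 10 were under 0.05 at any fold, against 10.2% of all genes. With adjusted p in place of unadjusted p it was 0 of 10 and 0.0217% of all genes, and DESeq2 called 0 of 10 as well. The log2 fold changes of the neighbours ran from -0.28 for FAM13B to 0.17 for BRD8, with a median of -0.03, and the median over all genes tested was 0.0002. A p above the threshold does not show that a level stayed the same, so the intervals were read too. The 95% interval of the log2 fold change lay within a 1.5-fold change in either direction for 9 of the 10 neighbours and for 32.1% of all genes tested. The exception was FAM13B, whose interval reached from -0.62 to 0.06. Across all 10 the lowest bound was -0.62 and the highest 0.54, and the interval of KDM3B ended at -0.87, below all of them. Intervals narrow as counts rise. The neighbours were all well counted, whereas the genes tested reached down to the low-count filter. Neighbours were not compared with genes of like counts, here or in the interval shares given below.

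**Figure D1:**
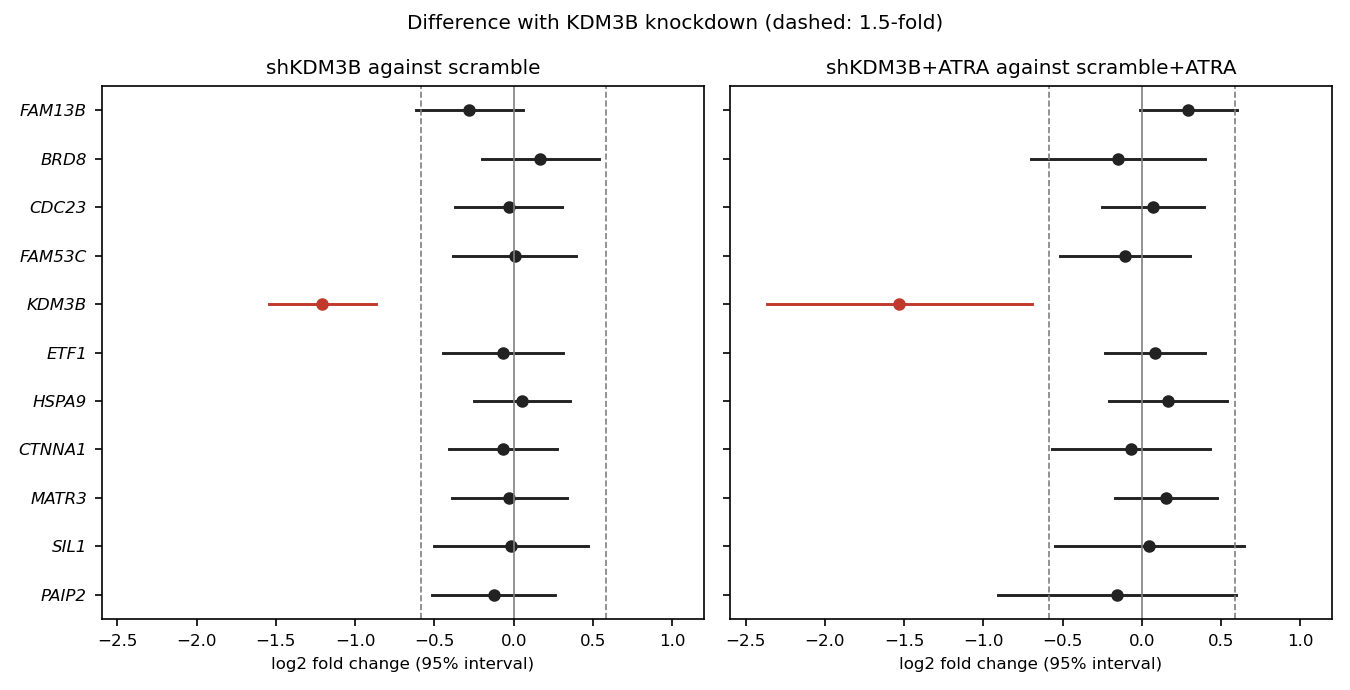
Log2 fold change with its 95% interval (x axis) for KDM3B, in red, and its 10 neighbours in chromosome order (y axis), for shKDM3B against scramble at the left and shKDM3B+ATRA against scramble+ATRA at the right, 2 libraries a group; dashed lines mark a 1.5-fold change. KDM3B lies at -1.21 and -1.53, and every interval of a neighbour includes 0.

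FAM53C, the nearest member on the centromeric side, and ETF1, HSPA9 and CTNNA1, the nearest on the telomeric side, can be read library by library. By annotated start CDC23 and BRD8 lie closer to KDM3B than these telomeric members, and both are given further below. REEP2 and EGR1, described below, lie between KDM3B and the telomeric members. FAM53C, whose 3′ end lies just upstream of KDM3B on the same strand, had 96.6 and 124 normalized CPM in scramble and 105 and 116 in shKDM3B. Its log2 fold change was 0.01 ± 0.17, and the groups overlapped fully. ETF1, the next member on the other side, had 362 and 282 in scramble and 320.2 and 294 in shKDM3B, a log2 fold change of -0.07 ± 0.17. The shKDM3B libraries lay between the scramble libraries. HSPA9 had 966 and 914 in scramble and 990.3 and 959.5 in shKDM3B, a log2 fold change of 0.05 ± 0.13. CTNNA1 had 78.1 and 78.5 in scramble and 78.3 and 71.3 in shKDM3B, a log2 fold change of -0.07 ± 0.15.

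FAM13B and BRD8 were the members whose groups did not overlap in untreated cells, 2 of 10 against 40.9% of all genes on the same scale. FAM13B had 77.2 and 76.8 normalized CPM in scramble and 62.3 and 64.4 in shKDM3B. Its log2 fold change was -0.28 ± 0.15, with an edgeR p of 0.091 before and 0.603 after adjustment. BRD8 had 69.2 and 84.3 in scramble and 87.7 and 84.7 in shKDM3B. The gap between its groups was smaller than the spread within scramble. The log2 fold change of BRD8 was 0.17 ± 0.16. The other members CDC23, MATR3, PAIP2 and SIL1 had log2 fold changes of -0.03, -0.03, -0.13 and -0.02.

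**Figure D2:**
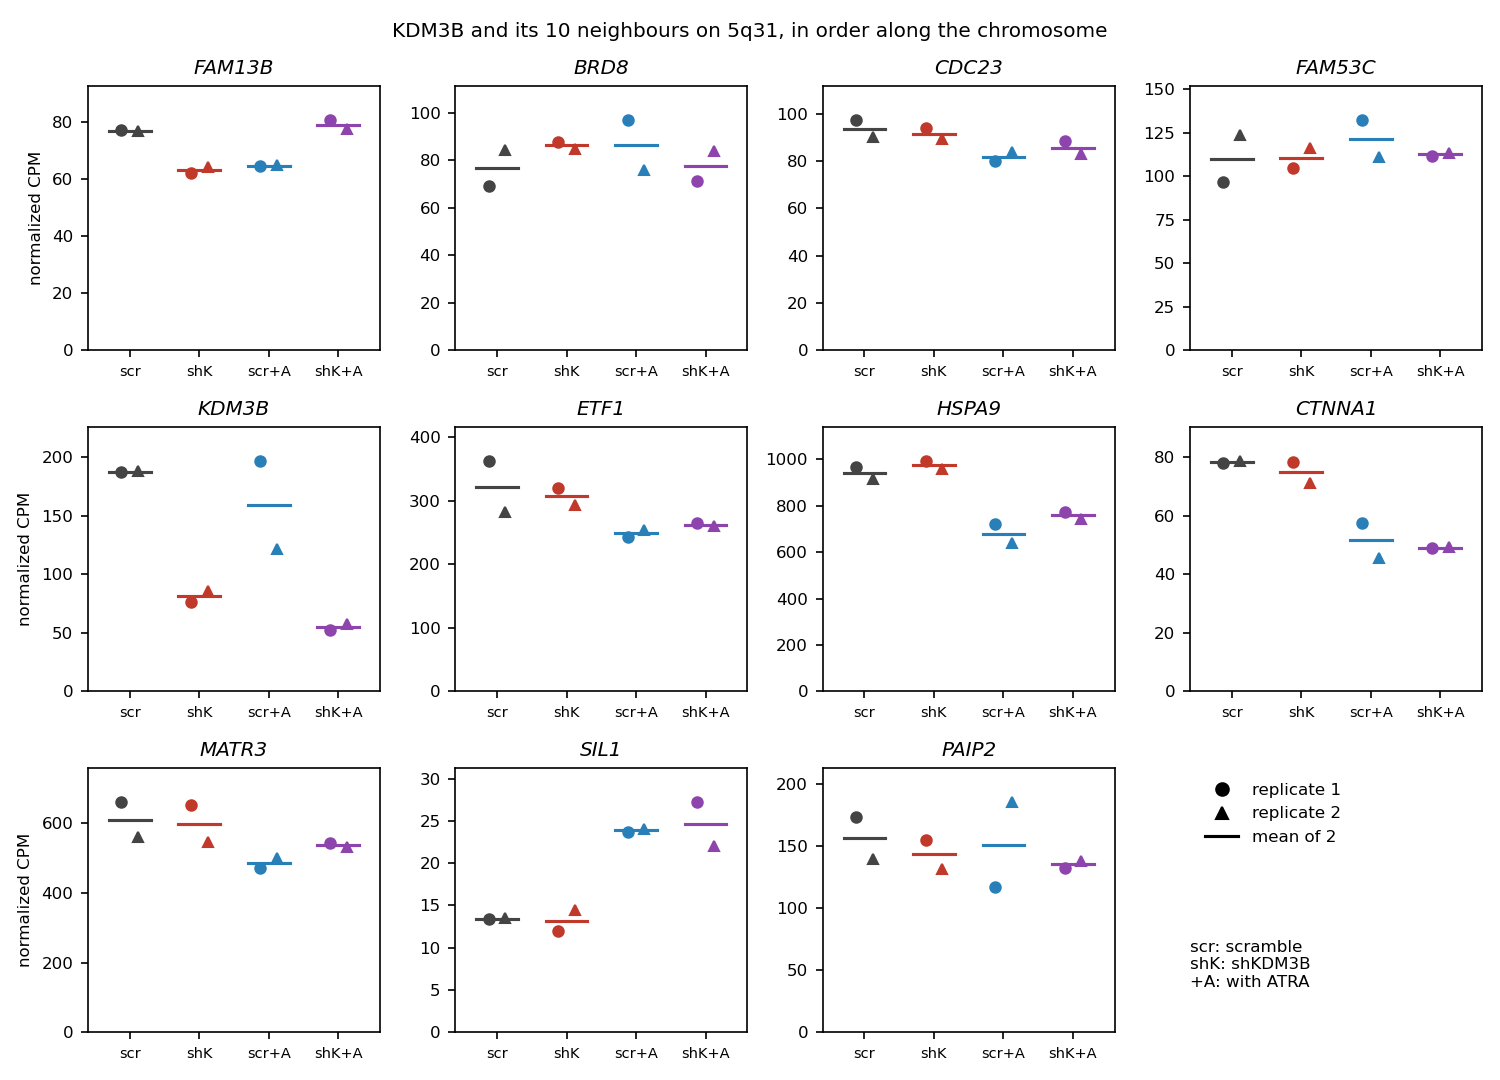
Normalized CPM (y axis, from 0, a scale of its own for each gene) of KDM3B and its 10 neighbours in each of the 8 libraries, by group (x axis: scr, scramble; shK, shKDM3B; +A, with ATRA); circles are replicate 1, triangles replicate 2 and bars the mean of 2. KDM3B drops to 76.3 and 86.2 in shKDM3B while ETF1 and CTNNA1 stay within or near the range of scramble, and SIL1 rises in both ATRA groups.

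In ATRA-treated cells none of the neighbours was called either. Of the 10 neighbours 0 were called in shKDM3B+ATRA against scramble+ATRA, against 6.79% of the 14281 genes tested with edgeR, and 0 had an unadjusted p under 0.05, against 9.68%. DESeq2 called 0 as well, and gave FAM13B an unadjusted p just under 0.05 at less than 1.5-fold. Log2 fold changes ran from -0.16 for PAIP2 to 0.29 for FAM13B, with a median of 0.06 beside 0.03 for all genes. The 95% interval lay within a 1.5-fold change for 6 of 10 neighbours and for 10.7% of all genes. The bounds reached from -0.91 to 0.64, which overlaps the interval of KDM3B, whose upper end was -0.69. HSPA9, ETF1, FAM13B and MATR3 were higher in both shKDM3B+ATRA libraries than in both scramble+ATRA libraries, 4 of 10 against 50.1% of all genes on the same scale.

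PAIP2 was the member that depended most on which ATRA control was used. It had 117 and 185 normalized CPM in scramble+ATRA and 132 and 138 in shKDM3B+ATRA, with the low-side library at the lower value. Its log2 fold change was -0.16 ± 0.26 with both controls and -0.44 with the high-side control alone, still under 1.5-fold. With the same control HSPA9 was at 0.26 and FAM13B at 0.30, in a fit with a lone scramble+ATRA library whose own spread could not be measured. An unnamed antisense transcript on the opposite strand covers 664 exon bases of PAIP2, 21.0% of its exon length. The sources used here do not say whether strand was used in counting, so reads of PAIP2 and of this transcript cannot be told apart. On the high side alone CTNNA1, FAM53C and BRD8 turned to 0.12, 0.03 and 0.05, and 0 of 10 were called.

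Other genes of the window gave a measure of how much a gene of this region can move between these libraries. Within 1 Mb of the KDM3B start, 8 genes with names matched to the annotation, other than the members and KDM3B, were tested in untreated cells, of which 1 rose and 1 fell, against 7.01% of all genes called in either direction. EGR1, an immediate early transcription factor 113 kb from KDM3B, had 1.76 and 2.81 normalized CPM in scramble and 6.42 and 9.60 in shKDM3B, a log2 fold change of 1.81 ± 0.35 (edgeR adjusted p = 0.129). REEP2, an endoplasmic reticulum shaping gene and the nearest tested gene on the telomeric side at 86.4 kb, had 2.31 and 1.76 normalized CPM in scramble and 0.411 and 1.23 in shKDM3B, on 8 to 46 counts. REEP2 had a log2 fold change of -1.24 ± 0.52 (edgeR adjusted p = 0.464). CDC25C, the nearest on the centromeric side at -14.3 kb, had a log2 fold change of -0.04. KIF20A, a mitotic kinesin that begins beside BRD8, was at 0.37, under the 1.5-fold threshold. Out to 5 Mb a further 60 matched genes were tested, of which 6 rose and 3 fell, or 9 called against the same 7.01%. Names that the annotation lists under a newer symbol, such as TMEM173, were not among them. With ATRA, EGR1 was 3.98 and 7.38 in scramble+ATRA and 2.21 in each shKDM3B+ATRA library, a log2 fold change of -1.35 ± 0.45 (edgeR adjusted p = 0.508), and it was the 1 gene called of the 9 others tested within 1 Mb. REEP2 was too low to be tested there, with 6 and 5 counts in scramble+ATRA and 0 and 2 in shKDM3B+ATRA. In scramble+ATRA against scramble it was called lower, at -2.26 ± 0.54 (edgeR adjusted p = 0.0366).

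The response to ATRA was a different comparison, in which 1 of the 10 neighbours passed the test. Untreated and ATRA libraries were counted on different sets of gene names, 37526 being common to both, so that ATRA and the set used for counting cannot be told apart in these comparisons. The common names held 96.4% to 99.1% of the counts of a library. SIL1 had 13.4 and 13.5 normalized CPM in scramble, 12.02 and 14.4 in shKDM3B, 23.7 and 24.1 in scramble+ATRA and 27.2 and 22.0 in shKDM3B+ATRA. All 4 ATRA libraries were above all 4 untreated libraries. Its log2 fold change was 0.87 ± 0.24 in scramble cells (edgeR adjusted p = 0.0595) and 0.94 ± 0.19 in shKDM3B cells (edgeR adjusted p = 0.00303). It was the 1 member called of 10 in each comparison, against 25.9% of 12429 genes tested in scramble and 42.2% of 12756 in shKDM3B, or 15% and 24% called in the direction of SIL1. With adjusted p in its place 0 and 1 of 10 were called, against 12.9% and 40.2% of all genes. At any fold 2 and 4 of 10 had an unadjusted p under 0.05, against 27.6% and 56.7%. On the low side alone, without replicate 2 of scramble+ATRA, the log2 fold change in scramble cells was 0.83. In scramble cells its unadjusted edgeR p rose from 0.00843 to 0.0689 or 0.0661 without replicate 1 or replicate 2 of scramble. Of the SIL1 exon length 9.35% is overlapped on the opposite strand, by MATR3, the non-coding RNA SNHG4 and a further transcript. SNHG4 went the other way, with 631 and 926 counts in scramble and 426 and 161 in scramble+ATRA.

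MATR3, annotated on the other side of the sequence shown above, did not pass the test, and the responses of SIL1 and MATR3 were not tested against each other. It had 659 and 561 normalized CPM in scramble, 653 and 545 in shKDM3B, 471 and 500.1 in scramble+ATRA and 543 and 532 in shKDM3B+ATRA. The log2 fold changes with ATRA were -0.29 ± 0.20 and -0.10 ± 0.13. The shared stretch held no retinoic acid response half-site, searched on both strands as AGGTCA, as its variant AGTTCA, as the form GGGTCA and as the form GGTTCA. Among the 17 RefSeq promoter entries of KDM3B and the 10 members, 2 held at least 1 of these, that of BRD8 and another of MATR3, beside 38.6% of 35116 promoters of the same length. A PU.1 site, searched as GAGGAAGT on both strands, was in 1 of the 17, an ETF1 entry, beside 2.59% of all. These are matches of letters, not measured binding.

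CTNNA1 was lower with ATRA by close to the fold threshold. It had 57.6 and 45.6 normalized CPM in scramble+ATRA and 49.0 and 49.2 in shKDM3B+ATRA, all below the lowest untreated library at 71.3. The log2 fold change was -0.57 ± 0.22 in scramble cells (edgeR adjusted p = 0.143) and -0.55 ± 0.13 in shKDM3B cells (edgeR adjusted p = 0.00744), both with an unadjusted p under 0.05 and both short of 1.5-fold. In 3 alternative fits it passed the fold in both comparisons. HSPA9 followed the same direction, with 719 and 638 in scramble+ATRA and 774 and 744 in shKDM3B+ATRA, all below the lowest untreated library at 914. The log2 fold change of HSPA9 was -0.44 ± 0.19 in scramble cells (edgeR adjusted p = 0.193) and -0.31 ± 0.11 in shKDM3B cells (edgeR adjusted p = 0.0431), again short of 1.5-fold. ETF1 had 243 and 255 in scramble+ATRA and 265 and 260.4 in shKDM3B+ATRA, below the lowest untreated library at 282, with log2 fold changes of -0.34 ± 0.22 and -0.17 ± 0.12 that did not pass. The groups did not overlap for 7 of the 10 members in scramble cells and 8 of 10 in shKDM3B cells, against 57.4% and 76.7% of all genes on the same scale. The 95% interval lay within 1.5-fold for 0 of 10 and 7 of 10 members, against 5.43% and 21.2% of all genes.

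**Figure D3:**
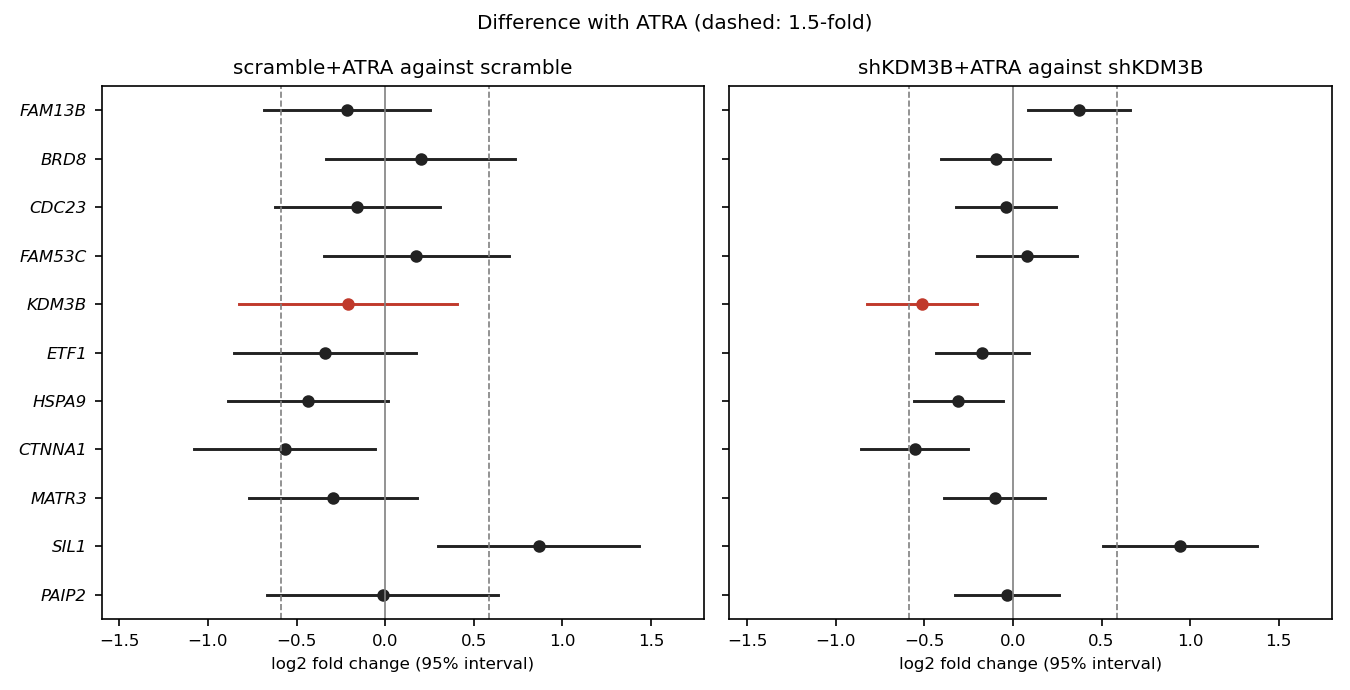
Log2 fold change with its 95% interval (x axis) for KDM3B, in red, and its 10 neighbours in chromosome order (y axis), for scramble+ATRA against scramble at the left and shKDM3B+ATRA against shKDM3B at the right, 2 libraries a group; dashed lines mark a 1.5-fold change. SIL1 lies at 0.87 and 0.94, past the dashed line in both panels, and CTNNA1 at -0.57 and -0.55, just inside it.

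FAM53C, BRD8, CDC23 and PAIP2 did not pass the test with ATRA in either line. Their log2 fold changes in scramble cells were 0.18, 0.20, -0.16 and -0.01, and in shKDM3B cells 0.08, -0.10, -0.04 and -0.03. KDM3B itself had a log2 fold change of -0.21 ± 0.26 with ATRA in scramble cells and -0.51 ± 0.14 in shKDM3B cells (edgeR adjusted p = 0.0124, under 1.5-fold). On the low side alone the scramble value was 0.07, and without replicate 1 of scramble+ATRA it was -0.59, so that 1 library decided its direction.

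FAM13B was the 1 member whose response to ATRA differed between the lines at an unadjusted p under 0.05. It had 64.7 and 64.8 normalized CPM in scramble+ATRA and 80.6 and 77.6 in shKDM3B+ATRA, so that scramble and shKDM3B+ATRA lay at 76.8 to 80.6 and the other 2 groups at 62.3 to 64.8. The log2 fold change with ATRA was -0.22 ± 0.20 in scramble cells and 0.37 ± 0.13 in shKDM3B cells (edgeR adjusted p = 0.0353, under 1.5-fold). The difference between these responses, tested over all 8 libraries, was 0.57 ± 0.17, with an unadjusted edgeR p of 0.0123 and an adjusted p of 1.0. By fold and unadjusted p together 0 of 10 members were called in this test, against 3.99% of 13528 genes, or 1 of 10 at any fold, against 4.49%. DESeq2, DESeq2 size factors in edgeR and library size alone each called 1, FAM13B. The 95% interval of the difference lay within 1.5-fold for 3 of 10 members and 6.36% of genes. Over all genes edgeR found 0 with an adjusted p under 0.05 and 607 with an unadjusted p under 0.05, and DESeq2 called 501 by fold and unadjusted p. PKD2L2, whose exons overlap 553 bases of FAM13B on the opposite strand, had 5 and 5 counts in scramble, 1 and 3 in shKDM3B, 3 and 125 in scramble+ATRA and 163 and 140 in shKDM3B+ATRA. It was high in the 3 high-side libraries, whereas FAM13B was not high in the high-side library of scramble+ATRA. The part of this overlap in the FAM13B values was not tested.

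The partners of the neighbours in their complexes and pathways were counted from lists set out by hand. Of the anaphase-promoting complex (CDC23) 0 of 15 tested genes were called in either knockdown comparison, of the NuA4/TIP60 complex (BRD8) 0 of 17, of translation termination and poly(A)-binding protein partners (ETF1, PAIP2) 0 of 10, of mitochondrial chaperones (HSPA9) 0 of 9, and of the endoplasmic reticulum HSP70 system (SIL1) 0 of 8. Over all genes 7.01% and 6.79% were called, so lists of this size would hold few calls at that share. The median log2 fold changes of these lists in untreated cells were -0.07, -0.0018, 0.06, -0.05 and 0.24. Of 5 tested genes of cadherin and catenin adhesion (CTNNA1) 1 was called in both comparisons. This was CTNNB1, β-catenin, which binds α-catenin and also acts in WNT signalling, with log2 fold changes of -0.80 ± 0.15 (edgeR adjusted p = 0.125) and -0.76 ± 0.11 (edgeR adjusted p = 0.502).

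With ATRA the called partners in scramble and in shKDM3B cells numbered 1 and 2 of 15 for the anaphase-promoting complex, 2 and 3 of 17 for NuA4/TIP60, 1 and 2 of 10 for the translation list, 1 and 3 of 9 for mitochondrial chaperones and 2 and 3 of 8 for the endoplasmic reticulum list. For the catenin list they were 3 and 1 of 5. The shares over all genes were 25.9% and 42.2%, and no list was tested against them. The interaction test called 0 genes of each of these lists, so a call in 1 line alone does not show a difference between the lines. In shKDM3B cells ATRA and the high side cannot be told apart. In the endoplasmic reticulum list DNAJC3, a co-chaperone, rose by 0.88 ± 0.23 in scramble cells and 0.90 ± 0.12 in shKDM3B cells on the log2 scale, and HYOU1, a large HSP70-like exchange factor, had -0.69 ± 0.27 and -1.03 ± 0.15. The co-chaperone DNAJB9 was called in shKDM3B cells alone, at 0.91 ± 0.24, and the interaction test did not call it. Of the mitochondrial chaperones TRAP1 fell in both, by 0.76 and 1.08, and in shKDM3B cells DNAJA3 was at -3.19 and HSPE1 at -0.77. Of the catenin list JUP, γ-catenin, was at -1.45 and -1.18. In scramble cells CTNNAL1 was also at -0.76 and VCL, vinculin, at 0.71. Of NuA4/TIP60, RUVBL2 and MBTD1 were called lower in both lines and TRRAP in shKDM3B cells. Of the anaphase-promoting complex CDC26 was called higher in scramble cells and ANAPC11 and ANAPC10 in shKDM3B cells. Of the translation list ABCE1 was called lower in scramble cells and PABPC4 and EIF4G1 in shKDM3B cells.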

How the data were processed

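RNA of 8 NB4 libraries was sequenced. Per the labels and the study's methods, the authors aligned reads to hg38 with HISAT2, and counted them on genes with HTSeq. The library kit was TruSeq and the strand setting of the counting is not given in the sources used here. The deposited files hold whole-number counts per gene name, not normalized, with 5 HTSeq summary lines that were left out of library sizes and tests: pairs outside genes were 8.49% to 51.4% and ambiguous pairs 2.39% to 4.31% of uniquely aligned pairs. Untreated files list 56470 names and ATRA files 56609.

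Each pair of groups was fitted with edgeR 4.0.16 (R 4.3.3; filterByExpr, TMM, quasi-likelihood F test). SE is the log2 fold change divided by the square root of F. Adjusted p is Benjamini-Hochberg over all genes of the fit. DESeq2 1.42.0 was an alternative. Intervals of 95% used the total degrees of freedom. With 2 libraries a group the smallest two-sided permutation p is 0.333. Nothing says that replicates were separate cultures, so p-values measure the spread between these samples, which may be technical. The fits were tested on simulated counts. Bounds against 3 counts per library cover counting error only.

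The 10 members and all lists were chosen with earlier results of these data known. Besides members and KDM3B, the text names the nearest tested gene on each side, called genes within 1 Mb, the 3 most changed called genes out to 5 Mb, and called list genes. KIF20A, PKD2L2 and SNHG4 were named after their values were seen, for overlapping or adjoining a member. Gene positions came from GENCODE v44, in which 35880 of 75553 names matched, and promoters from RefSeq (GRCh38.p14), with entries for KDM3B and all 10 members. Of processed pseudogenes of members, HSPA9P1 had 1 to 20 counts and those of CTNNA1 and ETF1 at most 4. MATR3 stands for 2 gene identifiers in the annotation.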

Additional observations from a re-analysis of the deposited data

Results flagged for a closer look

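The response to ATRA differed between shKDM3B and scramble cells at an unadjusted p under 0.05 for 1 member and for EGR1, by the interaction test of edgeR over all 8 libraries, in which 4.49% of genes had such a p. For FAM13B the log2 response in shKDM3B minus that in scramble was 0.57 (unadjusted p = 0.0123, adjusted p = 1.0). For EGR1, which is no member, it was -3.16 ± 0.61 (unadjusted p = 0.0012, adjusted p = 0.965), the log2 response being 1.34 in scramble and -1.81 in shKDM3B cells. Neither passed after adjustment over 13528 genes.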

How the results depend on the processing

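With the knockdown 0 of 10 neighbours were called under all alternatives run in untreated and in ATRA-treated cells: DESeq2 size factors, library size alone, other count filters, the replicate block, DESeq2, all 8 libraries in 1 fit, adjusted p, and leaving out each library. Between scramble+ATRA and scramble the count of 1 rose to 2, by CTNNA1, with library size alone, no filter and all 8 libraries in 1 fit, and fell to 0 with adjusted p; without 1 library it was 0 to 2, 0 without either scramble library and 2 without replicate 1 of scramble+ATRA. In shKDM3B cells it was 2, again by CTNNA1, under the same 3 and 1 to 2 without 1 library, 2 without replicate 2 of shKDM3B. In the interaction FAM13B was called, a count of 1, with DESeq2 size factors, library size alone and DESeq2, and 0 to 1 members were called without 1 library, 1 without replicate 2 of shKDM3B or of shKDM3B+ATRA. Directions turned for FAM53C with the knockdown in untreated cells with library size alone (-0.0155), and in the interaction for CTNNA1 with DESeq2 size factors (0.0172), library size alone (0.0641), DESeq2 (0.0154) and the replicate block (0.0031) and for PAIP2 with library size alone (0.0374). The cause was not tested.

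Counts of all genes called moved over 1.5 times. In untreated cells 971 became 3 with adjusted p and 943 to 1650 without 1 library, 1650 without replicate 2 of scramble. With ATRA 969 became 525 with the replicate block, 0 with adjusted p and 134 to 5360 without 1 library (2496 and 5360 without replicates 1 and 2 of scramble+ATRA, 134 and 284 without those of shKDM3B+ATRA). In scramble+ATRA against scramble 3213 became 1604 with adjusted p and 1462 to 5142 without 1 library (1578 and 1462 without replicates 1 and 2 of scramble, 5142 without replicate 1 of scramble+ATRA). In the interaction 540 became 941 without a filter, 0 with adjusted p and 285 to 2432 without 1 library (345 without replicate 1 of scramble, 2432 without replicate 2 of scramble+ATRA, 285 without replicate 1 of shKDM3B+ATRA). A lone library left in a group was assumed to vary like the rest.

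The deviations of same-numbered replicates had correlations of 0.389, 0.026, -0.075 and 0.184 over genes in the 4 comparisons. The main fits did not take the numbers as pairs. The 0.389 belongs to the knockdown in untreated cells, where the unpaired fit leaves out any effect shared by same-numbered replicates. With the replicate block 1242, 525, 2881 and 5445 genes were called in the 4 comparisons and 538 in the interaction, and no call at a member or KDM3B changed, although FAM13B with the knockdown in untreated cells then had an unadjusted p under 0.05 at -0.28. In ATRA-treated cells FAM13B had such a p, below 1.5-fold, with DESeq2, library size alone and all 8 libraries in 1 fit. Of the values for single genes under alternatives that kept all libraries, the turned ones above included, 411 kept direction and side of the threshold, 9 passed it, 3 lost it and 6 turned.

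Without 1 library the log2 fold changes that turned ranged as follows. With the knockdown in untreated cells ETF1 was -0.23 to 0.12, FAM53C -0.16 to 0.20, CDC23 -0.0811 to 0.0246, MATR3 -0.16 to 0.10, PAIP2 -0.27 to 0.0382 and SIL1 -0.17 to 0.10. With ATRA CTNNA1 was -0.23 to 0.12, FAM53C -0.23 to 0.032, BRD8 -0.32 to 0.0469, PAIP2 -0.44 to 0.20 and SIL1 -0.11 to 0.20. In scramble+ATRA against scramble FAM53C was -0.02 to 0.35, PAIP2 -0.41 to 0.28 and KDM3B -0.59 to 0.0731. In shKDM3B cells FAM53C was -0.047 to 0.16, CDC23 -0.11 to 0.0057 and PAIP2 -0.15 to 0.0381. In the interaction CTNNA1 was -0.17 to 0.18, ETF1 -0.0467 to 0.31, FAM53C -0.31 to 0.0485, PAIP2 -0.32 to 0.32, SIL1 -0.0681 to 0.26 and KDM3B -0.64 to 0.0684.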

Other observations

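Of 52 genes of 5q31 listed by hand, 39 were tested for the response to ATRA in scramble cells, of which 5 rose and 1 fell, and 41 in shKDM3B cells, of which 11 rose and 1 fell. Of all genes tested 25.9% and 42.2% were called. With the knockdown in untreated cells 2 of 39 rose, EGR1 and HBEGF, and 4 fell, CXXC5, TMEM173, REEP2 and CYSTM1, against 7.01% of all genes called. With ATRA, 0 of 40 rose with the knockdown and 2 fell, HBEGF and EGR1, against 6.79%. HBEGF, an EGF-family growth factor 1994 kb from KDM3B, had 140 and 138 counts in scramble and 1636 and 1210 in scramble+ATRA, a log2 fold change of 4.08 ± 0.25 (edgeR adjusted p = 0.0002). In shKDM3B cells it was 2.31 ± 0.19, and in shKDM3B+ATRA against scramble+ATRA -0.89 ± 0.13 (edgeR adjusted p = 0.502). In untreated cells it was higher with the knockdown, at 0.89 ± 0.26 (edgeR adjusted p = 0.262). The difference between its responses to ATRA was -1.79 ± 0.28 by the interaction test (edgeR adjusted p = 0.962). TMEM173, which encodes the innate immune adaptor STING, had log2 fold changes with ATRA of 3.47 ± 0.22 and 3.93 ± 0.15. CXXC5, a zinc finger factor induced by retinoids, had 1.78 ± 0.26 and 2.67 ± 0.17, and in untreated cells it was lower with the knockdown, at -0.91 ± 0.24 (edgeR adjusted p = 0.207). The difference between its responses was 0.88 ± 0.32 (edgeR adjusted p = 1.0). In untreated cells TMEM173 was at -0.63 ± 0.17 with the knockdown (edgeR adjusted p = 0.208). CYSTM1 had 1.91 and 2.81 with ATRA and -0.71 ± 0.30 with the knockdown in untreated cells (edgeR adjusted p = 0.472). EGR1 was called higher with ATRA in scramble cells and lower in shKDM3B cells.

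SPRY4, a feedback inhibitor of receptor kinases 3974 kb from KDM3B, had 240 and 309 counts in scramble and 16 and 5 in scramble+ATRA, a log2 fold change of -4.03 ± 0.46 (edgeR adjusted p = 0.00193). MZB1 had 62 and 37 counts in scramble and 1 in each scramble+ATRA library, at least 10.1-fold lower. SNORD63, a small nucleolar RNA within HSPA9, had 46 and 58 counts in scramble and 3 and 1 in scramble+ATRA, at least 10.3-fold lower, and was at least 7.70-fold lower with ATRA in shKDM3B cells. Another small nucleolar RNA near it, SNORD63B, was tested in shKDM3B+ATRA against scramble+ATRA alone. Whether the different gene names of untreated and ATRA libraries changed the SNORD63 counts was not tested. Of further 5q genes studied in myeloid disease, 0 of 10 tested were called with the knockdown in untreated cells and 0 of 9 with ATRA, against 7.01% and 6.79% of all genes, too few genes to set them apart. With ATRA, SPARC, a matrix protein gene, had -2.21 ± 0.22 and -1.66 ± 0.14, DIAPH1, an actin nucleator, -0.89 ± 0.25 and -0.70 ± 0.13, and the helicase gene DDX41 was called in shKDM3B cells at -0.86 ± 0.13 and not in scramble cells. The interaction test called 0 of these 10 genes, so a difference between the lines is not shown.

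PKD2L2, MYOT and MIR3661 were high in the 3 libraries with 50.02% to 51.4% of their pairs outside genes and not in the remaining ATRA library. They had 3, 0 and 0 counts in replicate 1 of scramble+ATRA and 125, 11 and 215 in replicate 2. In shKDM3B+ATRA against shKDM3B they were at least 126.9-fold, 8.83-fold and 227.6-fold higher. The part of that difference in these values was not tested.

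PCDHGA6 and PCDHGB3, of the protocadherin gamma cluster, were called higher with the knockdown in untreated cells, with 10 and 14 against 40 and 50 counts and with 5 and 4 against 10 and 26. CXXC5-AS1 was called in the interaction test, at 3.56 ± 1.17 (edgeR adjusted p = 1.0), on at most 23 counts in any library.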
